A study of Mus musculus with 2 samples.

Results

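The clustered histone genes were followed in the small intestine of mice on 2 diets. They were taken by name, as every probe that is no control and whose gene name in the array files begins with Hist1h, Hist2h, Hist3h or Hist4h. The rule gave 45 probes for 38 genes, of 41174 probes and 27376 gene names in all. By class, 6 genes code for the linker histone H1, 12 for H2A, 11 for H2B, 3 for H3 and 6 for H4. By cluster, 28 carry a Hist1 name, 6 a Hist2 name, 3 a Hist3 name and 1 the Hist4 name. The family was taken up because its ratios had stood out on these same arrays, so the ratios below are a description of the family and are not evidence that it differs between diets.

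RNA came from C57BL/6 mice aged 6 to 8 weeks, on conventional chow (Conv, LASQCdietRod16) or on a food antigen-free diet containing amino acids (FAF), which was kept for up to 5 generations. The labels mention SPF and GF mice and do not say which of them gave these RNAs. All groups share the strain and the tissue, and no allele or other agent is named. Both RNAs were hybridised together to 2 two-colour arrays with the dyes exchanged, so each diet is 1 RNA sample measured in 2 dyes. The diets therefore cannot be compared by a test, and none is given. Every ratio is given as log2 of FAF over Conv, the mean of both arrays, and ± is the distance of either array from that mean, which covers the array and the dye and not the difference between mice.

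Histones are the proteins on which DNA is wound. A pair each of H2A, H2B, H3 and H4 forms the core of the nucleosome, and H1 sits on the DNA between cores. Most genes of the Hist clusters are transcribed in S phase, when new DNA has to be packed, and their mRNAs end in a short stem-loop that is bound by Slbp in place of a poly(A) tail. Some of them can also give polyadenylated mRNA, which outlasts S phase. In the small intestine, dividing cells sit in the crypts and the villus is covered by cells that no longer divide. The labels name the labelling kit and not the primer it was used with, so the share of stem-loop and polyadenylated mRNA behind a signal is not known here.

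Of the 38 genes, 34 were measured, that is, at least 1 of their probes stood well above background in at least 1 diet on both arrays. Hist1h1t, Hist1h2ac, Hist1h2be and Hist2h2bb did not, and they enter no count. Hist1h1t codes for the linker histone of the testis. None of the member spots was saturated and none carried an outlier flag. Over the 40 measured member probes the arrays lay a median of 0.04 from their mean, against 0.05 over all 25440 measured probes.

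Histone genes of a class have near-identical coding sequence, and several probes share long stretches, so the probes come first. Probes of different genes were joined where they shared a run of 20 or more bases, or at least 80% of the bases over an overlap of 30 or more. By this measure 16 of the 40 measured probes had a partner in another member gene, and 24 did not. The first set comes from the end of the H2A coding sequence and from its beginning, and the capitals mark the longest run shared with a partner.
Hist1h2aa: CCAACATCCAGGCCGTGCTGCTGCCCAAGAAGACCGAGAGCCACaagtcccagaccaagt
Hist1h2af: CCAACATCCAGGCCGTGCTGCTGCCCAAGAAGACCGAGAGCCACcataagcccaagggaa
Hist1h2ao: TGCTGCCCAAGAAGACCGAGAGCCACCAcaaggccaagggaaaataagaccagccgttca
Hist1h2ak: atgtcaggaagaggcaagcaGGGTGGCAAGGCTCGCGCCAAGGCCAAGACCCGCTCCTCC
Hist1h2ai: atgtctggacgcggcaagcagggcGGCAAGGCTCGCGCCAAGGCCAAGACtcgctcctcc
Hist1h2aa and Hist1h2af share 44 bases without a gap, and Hist1h2ao shares 28 with Hist1h2af. Hist1h2ak and Hist1h2ai, which begin with the start codon atg, share an unbroken 26 bases and 55 of 60 bases overall. The capitals of Hist1h2ak mark 40 bases shared with the other Hist1h2af probe, which is not printed. The H2B probes carry the opposite sign of ratio and are set beside them for that reason.
Hist1h2bk: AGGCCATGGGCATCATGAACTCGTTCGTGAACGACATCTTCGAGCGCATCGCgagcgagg
Hist1h2bm: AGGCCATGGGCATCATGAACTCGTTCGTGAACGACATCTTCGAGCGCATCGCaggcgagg
Hist3h2bb-ps: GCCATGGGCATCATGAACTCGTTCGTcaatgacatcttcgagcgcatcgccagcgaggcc
Hist1h2ba: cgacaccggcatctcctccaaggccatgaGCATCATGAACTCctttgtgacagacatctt
The Hist1h2bk and Hist1h2bm probes are alike at 58 of 60 positions, and the differences are G53A and A54G, counted from 1 at the 5′ end with the Hist1h2bk base first. Hist1h2ba, the H2B gene of the testis, is alike with Hist1h2bk at 35 of 40 overlapping bases. The third set is H4, where the capitals again mark the longest shared run.
Hist1h4d: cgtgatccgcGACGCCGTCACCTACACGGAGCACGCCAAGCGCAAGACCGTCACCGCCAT
Hist1h4f: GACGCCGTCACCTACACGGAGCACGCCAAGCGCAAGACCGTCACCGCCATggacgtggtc
Hist2h4: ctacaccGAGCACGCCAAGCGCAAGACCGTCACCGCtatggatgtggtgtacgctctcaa
Hist1h4d and Hist1h4f overlap by 50 identical bases, although their genes lie apart on chromosome 13, and Hist2h4 lies on chromosome 3. Ratios of genes in 1 set are therefore not separate measurements, and a signal may come from several genes, including histone genes that have no probe here.

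Across the 34 measured genes the median ratio was -0.54, against -0.00 over all 17039 measured genes. By class the medians were -1.06 for H2A (11 genes), -0.83 for H1 (5 genes), -0.77 for H4 (6 genes), -0.12 for H3 (3 genes) and 0.62 for H2B (9 genes). A gene was called where the mean reached 2-fold and each array reached 1.5-fold in the same direction. By this rule 7 of the 34 were lower on FAF, where 0.886% of all measured genes were, and 0 were higher, where 1.54% were. With 1.5-fold on the mean and both arrays the same way, 17 were lower, against 3.6% of all genes, and 5 were higher, against 4.53%. The sign was below 0 on both arrays in 26 members, against 39.6% of all genes, and above 0 on both in 7, against 38.6%. Under median centring in place of loess the arrays lay farther apart, so that 1 member was called lower and 16 were below 0 on both arrays, while 7 had a mean at least 2-fold lower. The members were chosen with these ratios known, so the counts are given beside the background and nothing is read from them.

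**Figure D1:**
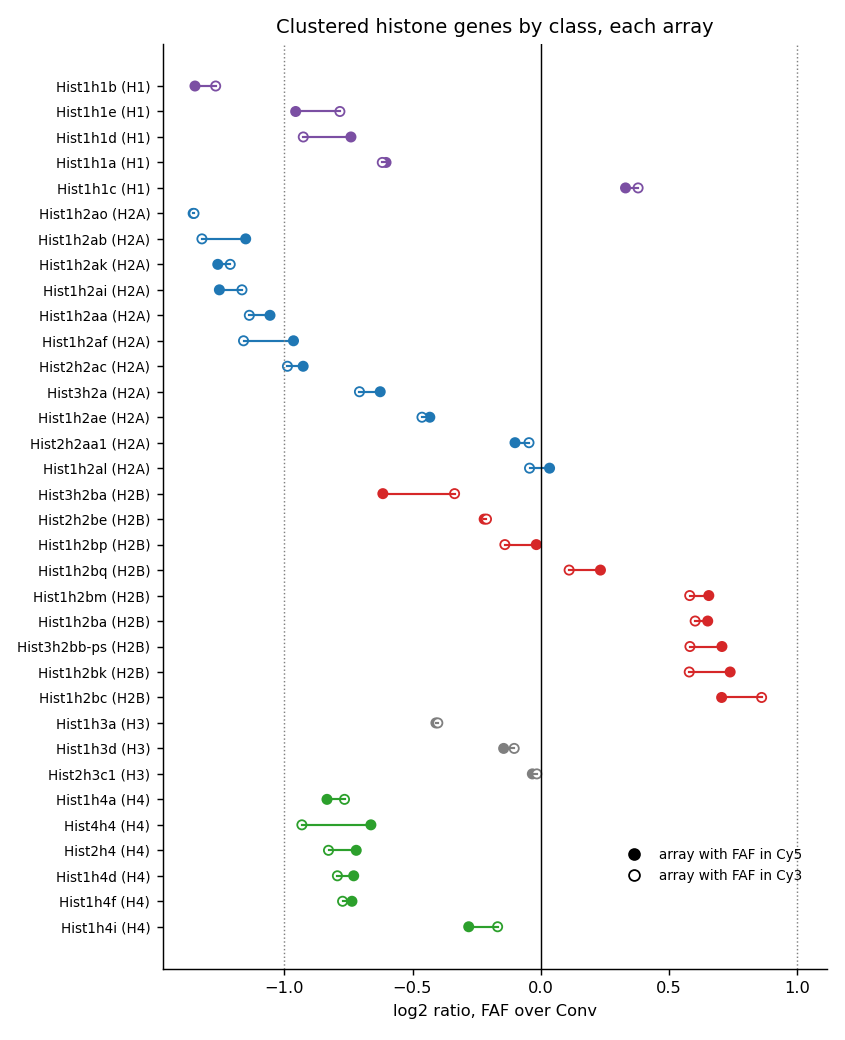
Log2 ratio of FAF over Conv for each of the 34 measured clustered histone genes, ordered by class and by ratio; the filled point is the array with FAF in Cy5, the open point the array with FAF in Cy3, and dotted lines mark 2-fold. The means of the H2A, H3 and H4 genes and of all H1 genes but Hist1h1c lie below 0, and the 5 H2B genes on the right lie between 0.62 and 0.78 in their means.

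H2A held 6 of the 7 genes that were called lower, all of them in the Hist1 cluster. The lowest ratio of any member was that of Hist1h2ao, at -1.35 ± 0.00 (2.56-fold lower on FAF). Its log2 intensity was 16.78 in Conv and 15.43 in FAF on the array with FAF in Cy5, and 16.61 and 15.26 on the other. Both Conv values lay above both FAF values, which was not counted over all genes. Hist1h2af, whose probe shares its run with Hist1h2aa, read 16.74 and 16.66 in Conv and 15.78 and 15.50 in FAF, a ratio of -1.06 ± 0.10. Its other probe, near the beginning of the coding sequence and 308 bases upstream, gave -1.33 ± 0.08. Hist1h2aa, which codes for the H2A of the testis, gave -1.10 ± 0.04, from 16.39 and 16.26 in Conv to 15.33 and 15.13 in FAF. That probe is not specific to the testis gene, since 44 of its 60 bases are shared with Hist1h2af.

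At the beginning of the H2A coding sequence, Hist1h2ak went from 13.56 and 13.55 in Conv to 12.30 and 12.34 in FAF, a ratio of -1.24 ± 0.02. Hist1h2ai went from 12.67 and 12.66 to 11.42 and 11.49, a ratio of -1.21 ± 0.04. The diets did not overlap for either gene, which was not counted over all genes. Another probe of that stretch belongs to Hist2h2aa1, a canonical H2A gene of chromosome 3. It matches Hist1h2ai at 48 of 58 bases and Hist1h2ak at 47 of 58, and it gave -0.07 ± 0.03, with 9.51 and 9.64 in Conv against 9.41 and 9.59 in FAF. The shares of like bases are 82.8% and 81.0%, with a longest shared run of 15 bases, and Hist2h2aa1 was chosen after its values were seen. Its ratio does not tell whether probes with longer shared runs read the same mRNAs.

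Hist1h2ab has a probe with no partner among the members and was called lower too, at -1.24 ± 0.09, from 10.70 and 10.65 in Conv to 9.55 and 9.33 in FAF. Hist2h2ac on chromosome 3 gave -0.96 ± 0.03 and -0.95 ± 0.16 from its 2 probes, which overlap almost wholly. Hist3h2a gave -0.67 ± 0.04. Hist1h2ae gave -0.45 ± 0.02 from a dim signal, between 6.59 and 7.21 on the log2 scale, where the added offset of 50 pulls ratios towards 0, and the software's own ratio for it was -1.05. Hist1h2al, at -0.00 ± 0.04, was the only H2A gene whose arrays disagreed in sign, from a dim signal between 6.41 and 6.51. RefSeq lists it as a transcribed pseudogene, and its probe at chr13:51295494-51295553 (mm9, minus strand) lies far from the cluster.

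In H1, 4 of 5 genes were below 0 on both arrays and 1 was above. Hist1h1b was the only H1 gene called, at -1.31 ± 0.04, with 11.13 and 11.16 in Conv and 9.78 and 9.89 in FAF. It has been known as an H1 of dividing cells, and its probe at chr13:21871923-21871982 (mm9, minus strand) has no partner among the members. Hist1h1e gave -0.87 ± 0.09, Hist1h1d -0.83 ± 0.09 and Hist1h1a -0.61 ± 0.01, for which the software's ratio was -0.94. Hist1h1c, an H1 that is also found in cells that have stopped dividing, gave 0.36 ± 0.02, from 12.28 and 12.32 in Conv to 12.61 and 12.70 in FAF. No H1 probe shared sequence with another member by the measure used, so the opposite signs of Hist1h1b and Hist1h1c come from separate probes.

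The H4 genes code for 1 and the same protein. Of the 6, 5 lay between -0.80 and -0.75, and all 6 were below 0 on both arrays. Hist1h4f gave -0.75 ± 0.02, from 14.50 and 14.41 in Conv to 13.77 and 13.64 in FAF. Hist1h4a gave -0.80 ± 0.03, Hist2h4 -0.77 ± 0.05 and Hist1h4d -0.76 ± 0.03, with -0.82 ± 0.00 from its other probe. Hist4h4, which lies alone on chromosome 6, gave -0.80 ± 0.13, and its probe has no partner among the members. Hist1h4i was apart at -0.22 ± 0.06, also from a probe without a partner. None of the H4 genes reached 2-fold, and 5 reached 1.5-fold.

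The 3 measured H3 genes lay closer to 0. Hist2h3c1 gave -0.02 ± 0.01, with 14.87 and 14.76 in Conv and 14.84 and 14.74 in FAF, so the diets overlapped over both arrays and differed by -0.03 and -0.02 within them. Hist1h3d gave -0.12 ± 0.02. Hist1h3a gave -0.41 ± 0.00 from a dim signal, between 6.65 and 7.24, and the software's ratio for it was -0.90. With 3 genes on the array, H3 was the least covered class.

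H2B went the other way in 5 of its 9 measured genes. The highest ratio of any member was that of Hist1h2bc, at 0.78 ± 0.08 (1.72-fold higher on FAF), with 12.42 and 12.46 in Conv and 13.12 and 13.32 in FAF. Its probe, at chr13:23784219-23784278 (mm9, plus strand), has no partner among the members. The next 4 form the set of like probes printed above and lie between 0.62 and 0.66. Hist1h2bk gave 0.66 ± 0.08, from 12.89 and 13.07 in Conv to 13.63 and 13.65 in FAF, and 0.61 ± 0.19 from a second probe outside the set. Hist3h2bb-ps, a transcribed pseudogene in RefSeq, gave 0.64 ± 0.06, from 12.70 and 12.95 to 13.41 and 13.53. Hist1h2ba gave 0.63 ± 0.02, from 11.74 and 11.71 to 12.39 and 12.31, and Hist1h2bm gave 0.62 ± 0.04, from 13.03 and 13.18 to 13.69 and 13.76. None of the 5 genes reached 2-fold. In each, both FAF values lay above both Conv values. How many of all measured genes part in this way was not counted, and 4 of the 5 are read by like probes, so nothing is read from it.

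The other 4 H2B genes did not share that direction as a group. Hist1h2bq was well above background in FAF on both arrays and in Conv on neither, so the size of its ratio is not known. The mean of the arrays was 0.17 ± 0.06 from a dim signal, and the software's ratio was 0.94. Hist1h2bp gave -0.08 ± 0.06 and was well above background in FAF on 1 of 2 arrays, and the software's ratio for it was -0.81. Hist2h2be, an H2B known from olfactory neurons, gave -0.22 ± 0.00, and Hist3h2ba gave -0.48 ± 0.14. Within H2B, the 6 probes without a partner ranged from -0.48 to 0.78 with a median of 0.05, and the 4 with partners from 0.62 to 0.66. Thus 4 of the 9 genes behind the class median of 0.62 are read by probes of 1 set. With no filter on dim probes the median over all 11 H2B genes was 0.17, which is the value of Hist1h2bq, whose size is not known.

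The same division was made for H2A and H4, while no H1 or H3 probe had a partner. In H2A, 7 probes with partners had a median of -1.21 and 7 without had -0.67, with ranges of -1.35 to -0.07 and -1.24 to 0.01. In H4, 5 with partners had -0.77 and 2 without had -0.51. Over all classes the medians were -0.79 for the 16 probes with partners and -0.31 for the 24 without. The H2A and H4 medians were below 0 both with and without partners. Partners were sought among member probes only, so a probe without a partner may still read other genes. Outside the family, H2afj, a variant H2A gene that is not clustered, has a probe with a 29-base run in common with Hist1h2aa and Hist1h2af, and it gave -0.78 ± 0.13.

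**Figure D2:**
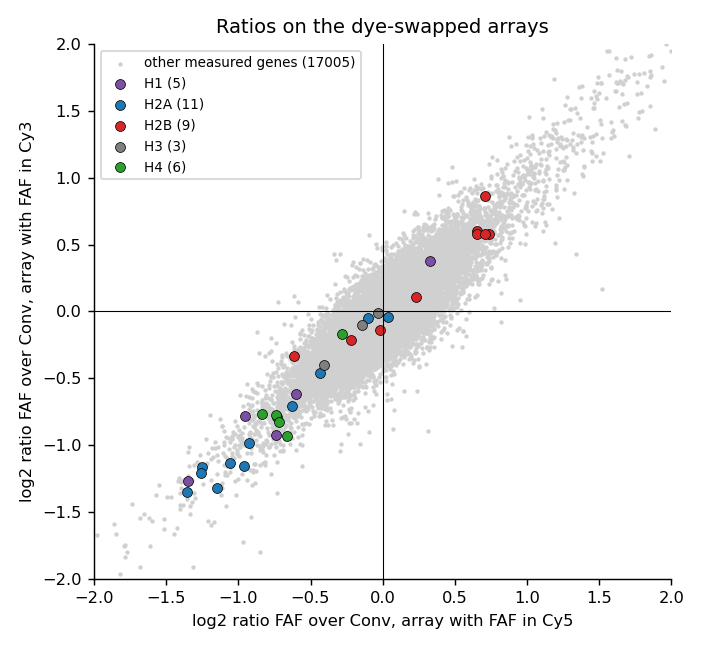
Log2 ratio of FAF over Conv on the array with FAF in Cy5 (horizontal) against that on the array with FAF in Cy3 (vertical), for 17005 other measured genes in grey and the 34 clustered histone genes coloured by class, with axes drawn from -2 to 2. Of the 34, 26 lie below 0 on both axes, 7 lie above 0 on both, and Hist1h2al changes sign.

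By cluster, the 25 measured Hist1 genes on chromosome 13 had a median of -0.61, the 5 Hist2 genes on chromosome 3 -0.22, and the 3 Hist3 genes on chromosome 11 -0.48. The 1 Hist4 gene, on chromosome 6, was at -0.80. The clusters hold different classes, which limits this comparison. Within Hist1 the medians were -1.15 for 8 H2A genes, -0.76 for 4 H4 genes, -0.83 for 5 H1 genes, -0.26 for 2 H3 genes and 0.62 for 6 H2B genes. In Hist3, Hist3h2a was at -0.67 (0.01 from its other probe), and the 2 H2B genes had opposite signs, Hist3h2ba at -0.48 and Hist3h2bb-ps, whose probe belongs to the shared H2B set, at 0.64. In Hist2 all 5 genes were below 0. All 7 genes called lower were in Hist1, where 25 of the 34 measured genes are.

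Along chromosome 13 both signs occurred among close neighbours. Many H2A and H2B genes are arranged head to head and are transcribed away from a shared stretch. The RefSeq starts of Hist1h2aa and Hist1h2ba lie 281 bases apart, and their ratios were -1.10 and 0.63. Those of Hist1h2ao and Hist1h2bq lie 168 bases apart. Hist1h2ao was at -1.35, and Hist1h2bq has no ratio of known size, since its Conv signal was not well above background. These were the measured H2A and H2B pairs with divergent starts within 1000 bases and a promoter sequence for both genes. Since the Hist1h2aa and Hist1h2ba probes share sequence with other genes, their ratios cannot be assigned to that pair alone.

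**Figure D3:**
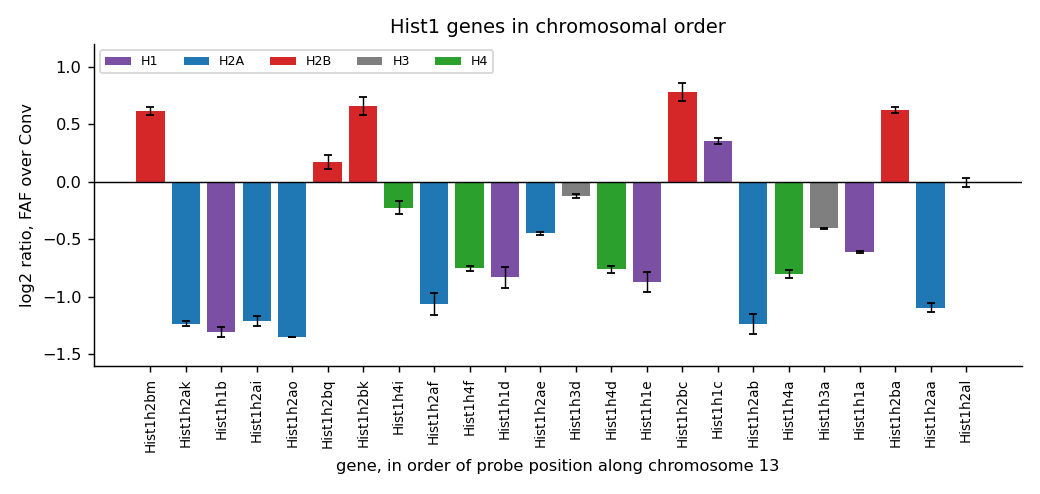
Log2 ratio of FAF over Conv (bars, mean of both arrays) of the measured Hist1 genes in the order of their probes along chromosome 13, coloured by class, with error bars to the value of each array; Hist1h2bp has no position in the array file and is left out. Bars above 0 are H2B genes and Hist1h1c and are spread among bars below 0, Hist1h2bq was not well above background in Conv, and Hist1h2al at the right end lies outside the cluster.

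A stem-loop was searched in the probes because it tells whether a probe reaches the end of the short mRNA. The whole motif occurred in 1 of 41174 probes, that of Hist1h3a. Its left part was also found at the end of the Hist1h2ab probe, and its right part at the beginning of the Hist1h2ae probe. The capitals mark the matching bases in 30-base windows.
Hist1h2ab: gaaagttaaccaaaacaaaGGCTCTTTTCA
Hist1h3a: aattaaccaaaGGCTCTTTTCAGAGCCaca
Hist1h2ae: CTTTTCAGAGCCattcacttaattcagtaa
The Hist1h2ae probe goes on past the stem-loop for 48 bases, so most of it lies beyond the usual end of the mRNA. The poly(A) signal AATAAA, searched in the strand printed on the array, was in 2 of 45 member probes, those of Hist1h2bp and Hist2h2bb, and in 4.78% of all probes.

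For 3 genes a second probe lay farther downstream than the RefSeq gene is long, a comparison chosen after the values were seen. In Hist1h1d the probes lie 1751 bases apart, against a gene span of 776 bases, and gave -0.83 ± 0.09 upstream and -0.20 ± 0.04 downstream. The downstream signal was dim, between 6.75 and 6.99, where the offset pulls ratios towards 0. The software's ratios were -1.10 upstream and -0.64 downstream. In Hist3h2a they lie 567 bases apart, against a span of 508, and gave -0.67 ± 0.04 and 0.01 ± 0.07. In Hist4h4 they lie 1612 bases apart, against a span of 439, and the upstream probe gave -0.80 ± 0.13 while the downstream probe stayed dim in both diets. In the 4 other genes with 2 measured probes, which lie closer together than the gene is long, the ratios differed by at most 0.27. RefSeq spans of over 2000 bases were listed for 6 members, including Hist1h2bc with 8282 bases, Hist1h2bq with 3788 and Hist2h2be with 2667. All but Hist1h2be of these 6 were measured, and their ratios ran from -0.22 to 0.78.

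All 38 genes matched a RefSeq gene, and 32 had a promoter sequence in the table, which covers 250 bases before to 50 after the start (GRCm38.p6). Motifs were searched on both strands. CCAAT, the core of the site for the factor NF-Y, was in 29 of 32 member promoters (90.6%) and in 37.9% of all 27025. TATAAA was in 20 (62.5%), against 14.2%. ATTTGCAT, the octamer bound by Pou2f1, was in 10 (31.2%), against 1.75%, and these were 6 of 11 H2A and 4 of 8 H2B promoters and no other. The starts of the head-to-head genes Hist1h2aa and Hist1h2ba lie 281 bases apart, so their promoter windows overlap. The same octamer can therefore be counted for an H2A and an H2B gene. Motifs are given as letters found and not as sites in use. The promoters of the lowest and highest H1 genes and of an H2A and an H2B gene are shown, each 5′ to 3′ up to the base before the start, with these motifs or their reverse complements in capitals.
Hist1h1b, chr13:21780626-21780775, minus strand: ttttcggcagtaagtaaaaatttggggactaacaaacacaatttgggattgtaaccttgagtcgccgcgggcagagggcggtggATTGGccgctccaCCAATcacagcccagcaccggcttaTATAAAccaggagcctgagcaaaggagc
Hist1h1c, chr13:23738657-23738806, plus strand: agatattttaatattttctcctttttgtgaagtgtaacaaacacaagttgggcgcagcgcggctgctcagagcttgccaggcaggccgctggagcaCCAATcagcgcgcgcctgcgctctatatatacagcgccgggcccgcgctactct
Hist1h2ab, chr13:23750938-23751087, plus strand: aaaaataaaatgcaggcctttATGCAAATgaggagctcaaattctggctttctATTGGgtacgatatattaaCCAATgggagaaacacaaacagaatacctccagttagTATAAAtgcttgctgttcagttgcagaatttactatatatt
Hist1h2ba, chr13:23934157-23934406, minus strand: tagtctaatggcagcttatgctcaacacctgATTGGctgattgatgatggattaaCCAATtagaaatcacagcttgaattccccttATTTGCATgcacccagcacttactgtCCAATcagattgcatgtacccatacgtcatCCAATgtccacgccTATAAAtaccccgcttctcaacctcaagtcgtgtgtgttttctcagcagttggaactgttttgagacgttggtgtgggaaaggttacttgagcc
All 4 hold CCAAT, and TATAAA is in those of Hist1h1b, Hist1h2ab and Hist1h2ba. The octamer is in those of Hist1h2ab, which was at -1.24, and Hist1h2ba, which was at 0.63.

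Genes that act with the histones were described from lists drawn up with earlier results of these arrays known. Their counts are read beside the shares of all measured genes, 0.886% called lower, 1.54% called higher, 3.6% lower at 1.5-fold and 39.6% below 0 on both arrays. Of 29 measured genes of histone mRNA processing and control, 0 were called either way, 1 was lower at 1.5-fold, about the share of all genes, and the median was -0.16. The lowest was Ccne1, the cyclin of S phase entry, at -0.66 ± 0.05, and the next was Ncbp1, a cap-binding protein, at -0.48 ± 0.13. Of 35 histone chaperone and import genes, 0 were called, 3 were lower at 1.5-fold and the median was -0.22. The lowest were Asf1b, which hands H3 and H4 to assembly factors in dividing cells, at -0.91 ± 0.01, and Chaf1b, a subunit of the assembly factor CAF1, at -0.80 ± 0.08. Of 14 measured variant and replication-independent histone genes, 4 were lower at 1.5-fold, with a median of -0.11, which ran from -0.18 to -0.03 over the alternatives. Cenpa, the H3 of centromeres, was lowest at -0.88 ± 0.02.

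Genes of the cell cycle were set beside the members and beside the same shares of all genes. Of 46 S phase genes, 2 were called lower and 0 higher, 42 were below 0 on both arrays, and the median was -0.52. E2f2, a factor for S phase genes, was at -1.15 ± 0.12, and Ccna2, the cyclin of S phase and mitosis, at -1.03 ± 0.16. Of 24 G2 and mitosis genes, 6 were called lower, all 24 were below 0 on both arrays, and the median was -0.89. Among them were Kif20a, a mitotic kinesin, at -1.12 ± 0.04, Cdc20, an activator of the anaphase-promoting complex, at -1.10 ± 0.12, and the mitotic kinase Plk1 and cyclin Ccnb1, both at -1.05. Of 13 genes of cell cycle arrest, 0 were called, 1 was higher at 1.5-fold (Rb1, 0.60 ± 0.10) and the median was 0.01. The H1, H2A, H3 and H4 medians lay on the same side of 0 as those of both cell cycle lists, with H3 at -0.12. The H2B median lay on the other side.

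**Figure D4:**
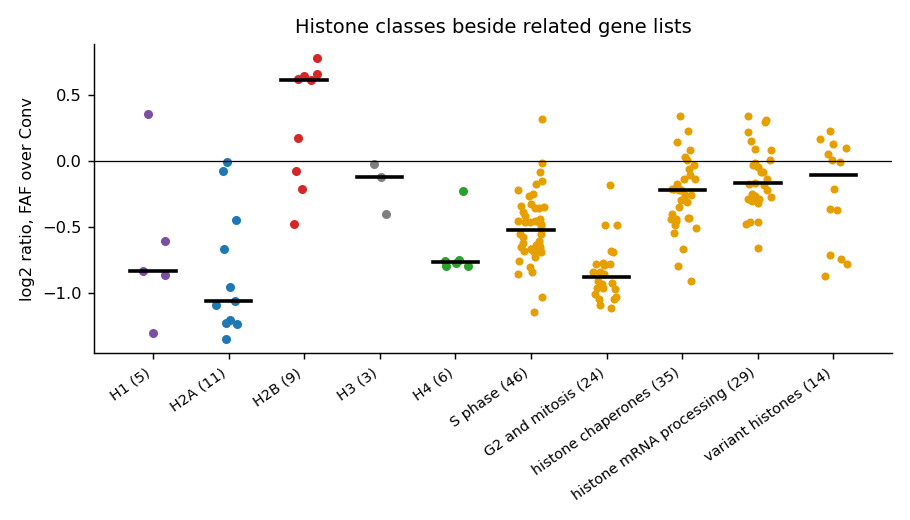
Log2 ratio of FAF over Conv of each measured gene (points, mean of both arrays) in the 5 histone classes and in 5 related lists, with the number of genes in brackets and the median as a black line. The H1, H2A and H4 medians lie at -0.83, -1.06 and -0.77. The G2 and mitosis median lies at -0.89 and the S phase median at -0.52. The H3 median lies at -0.12 and the H2B median at 0.62.

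Markers of the cells of the gut wall also differed between the RNAs. The tissue markers were present, with 8 of 8 enterocyte, 6 of 6 Paneth, 6 of 6 goblet and 8 of 8 smooth muscle genes measured. Enterocyte markers had a median of 0.58, with Sis, the sucrase of the brush border, at 1.70 ± 0.07 and Alpi, its alkaline phosphatase, at 1.31 ± 0.10. The summed intensity of the 8 was 415333 and 487279 in Conv and 687514 and 695912 in FAF. Crypt stem and transit-amplifying markers had a median of -0.36 over 10 genes, none called, with sums of 9671 and 9955 in Conv and 7591 and 7946 in FAF. For the 24 G2 and mitosis genes the sums were 54409 and 56503 in Conv and 28714 and 28872 in FAF.

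Paneth markers had a median of -0.79, with sums of 297272 and 312934 in Conv and 198509 and 175161 in FAF. Of these 6 markers 2 were called lower, against 0.886% of all measured genes, the share for every count called lower here. Smooth muscle markers had a median of -0.60, with sums of 148913 and 136575 in Conv and 94767 and 93407 in FAF, and none of the 8 was called. In the fat list, 7 of 8 genes were measured with a median of -1.13 (-2.28 with the software's ratio), 4 were called lower, and Cfd, a protease made by fat cells, was at -2.72 ± 0.02. The sums of the fat list were 18478 and 18017 in Conv and 9660 and 10540 in FAF. T cell markers had a median of -0.43, plasma cell markers -0.53 and goblet markers -0.32. Each had 1 gene called lower, of 10, 7 and 6 measured. Erythroid markers had -0.19 and B cell markers -0.09, with none called, and -0.33 and -0.23 with the software's ratio. The part of these markers in the histone ratios was not tested, and in RNA of whole tissue fewer dividing cells and less histone mRNA per cell cannot be told apart.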

How the data were processed

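RNA of 1 sample per diet was compared on 2 arrays with exchanged dyes, as paired by RNA codes in the labels. Trizol extraction and Quick Amp labelling are named per the labels' protocols. The deposited scanner files hold the spot intensity of each dye with local background, and the software the authors used (per the file headers, Feature Extraction version 11.5.1.1) also wrote a log10 ratio of Cy5 over Cy3 and spot flags. The deposited series value table is that log10 ratio: both columns have a median of 0 and run Cy5 over Cy3.

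From the mean intensities, log2 ratios were computed with limma 3.58.1 in R 4.3.3: normexp background correction with offset 50, loess on each array with control spots at weight 0, the ratio turned to FAF over Conv by the labelled dyes, and the mean of both arrays. The steps were tested on simulated data. A true log2 ratio of -1 was returned as a median of -0.86, and a true 1 as 0.90. Sizes thus came out too small there, and a true 2-fold change can fall short of the 2-fold rule. The printed intensities keep the offset of 50 and were also brought to a common distribution between the arrays (limma's Aquantile), which leaves the ratios unchanged. A gene is a name in the array file, represented by its measured probe of highest mean intensity. The number of arrays limits the precision, and nothing is known of the spread between mice. Probe positions are the array file's, in mm9. Promoters and gene spans are RefSeq's (GRCm38.p6), and chromosome 18 was left out of the promoter background.

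The members and gene lists were chosen with earlier results of these data known. Named with channel intensities were genes passing the 2-fold rule, the 4 lowest and 4 highest ratios and the brightest gene of each class. Hist2h2aa1 was added after its values were seen, and some dim genes were given with the range of their intensities. Genes named from the lists are among the 4 largest passing the rule or, where none passes, the 2 of largest ratio, and not all of these are named. Alternatives were other background corrections, median centring, the software's ratio, the deposited value table, each array alone, other filters, other fold limits and averaging all probes of a gene.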

Additional observations from a re-analysis of the deposited data

How the results depend on the processing

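No class median changed sign under any alternative run, and the number of members called lower stayed at 6 to 9 under the 2-fold rule except with median centring. With median centring in place of loess, 1 member was called lower and 16 were below 0 on both arrays: the mean of all 7 genes stayed 2-fold lower, but the arrays lay apart (Hist1h2af at -0.04 and -2.08), and the H1 median was -0.79. With no background correction the median of all members was -0.60 and of H1 -0.88, and with offset 10 they were -0.69 and -0.89. With the software's ratio, and likewise with the deposited value table that equals it, the medians were -0.80 for all members, -0.94 for H1 and -0.16 for H3, and 9 members were called lower, Hist1h1d and Hist1h2ae in addition. With only the array that had FAF in Cy5, the medians were -0.61 for all, -0.74 for H1 and -0.72 for H4, and on the other the H1 median was -0.78. With genes above background in both diets the median of 32 members was -0.64. With no filter on dim probes it was -0.43 over 38 members, H1 -0.72 and H2B 0.17, the last being the value of the dim Hist1h2bq. With the mean over a gene's probes it was -0.46, and H1 -0.61. A 1.5-fold limit gave 17 lower and 5 higher, 1.3-fold 20 and 5, and 4-fold 0 lower. No paired analysis was possible because each diet has 1 RNA sample. Dim signals (Hist1h2ae, Hist1h2al, Hist1h3a, Hist1h2bq, Hist1h2bp) limit what can be said of those genes.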
